A study of Rattus norvegicus with 36 samples.

Results

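The genes described here encode the enzymes and metal-binding proteins with which a rat muscle handles peroxides, superoxide and reactive electrophiles. They were chosen by symbol and not by a measured value, although earlier results of these data were known. The rule took symbols that begin with Gst, Mgst, Gpx, Prdx, Sod, Txn, Gcl or Hmox, the genes Cat, Gsr, Gss and Nqo1, and the metallothioneins Mt1, Mt2 and Mt3. The rule found 45 of the 4736 genes that have a probe set with 1 symbol, through 81 probe sets, and for each gene the probe set with the highest mean of the 36 arrays was used. Of the 45 members 40 were bright enough to be tested. The 5 that were not were Gclc, Gpx5, Gpx6, Gstt1 and Txnl4b. Gpx6 lay at the floor of the scale on all 36 arrays. Mt3 was the only metallothionein with a probe set of its own, and the other metallothioneins were not analysed here.

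RNA came from the extraocular muscles (EOM) of rats, the muscles that move the eye, and from a leg sample of gastrocnemius and soleus, a mostly fast and a mostly slow limb muscle. Both were taken at postnatal days 0, 7, 14, 21, 28 and 45 and hybridised to Affymetrix RG-U34A arrays, 3 arrays for each muscle and age, 36 in all. The labels name no strain, genotype or treatment for any of the 12 groups, and do not say whether the 3 arrays of a group came from separate or pooled animals, so a p-value here measures no more than how these arrays vary.

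Glutathione is a small thiol made in sequential steps by glutamate-cysteine ligase and glutathione synthetase and kept reduced by glutathione reductase. Glutathione transferases join it to electrophiles, and glutathione peroxidases use it to reduce peroxides, while peroxiredoxins do so with electrons from thioredoxin. Superoxide dismutases turn superoxide into hydrogen peroxide, which catalase breaks down, and metallothioneins bind zinc and copper through their cysteines. Mitochondria-rich muscle is a steady source of oxidants, and many of these genes are known targets of the transcription factor Nrf2. The metallothionein genes Mt1 and Mt2, not analysed here, answer to the metal sensor Mtf1.

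All values are log2 of the intensity, and a difference is that of 2 group means on this scale, with the standard error (SE) of a fit in which all 12 groups share 1 estimate of the spread. A member was called where the limma test, adjusted by Benjamini-Hochberg over all 6672 probe sets tested, gave a p under 0.05. Array medians lay between 418.7 and 652.2 intensity units, and arrays of 1 group correlated at 0.877 to 0.953 across probe sets. The lowest pair was EOM day 45 replicates 2 and 3. The EOM label was checked against Myh13, the myosin typical of these muscles, which read 14.01 to 15.10 in EOM and 6.70 to 10.16 in leg at day 45. The muscle creatine kinase Ckm was at the floor on all arrays of both muscles at days 21 and 28. Markers of other tissues moved with the groups. Of 11 gland and epithelium markers tested, 10 were higher in EOM at day 0 (3.93% of all probe sets) and 6 at day 7 (3.33%). At each age from day 14 on 0 were called. Their summed intensity was 29270 to 40856 in EOM and 3975 to 6139 in leg at day 0, and Scgb1a1 was at the floor in both. Of 14 Schwann cell and axon markers, 11 were higher in EOM over all ages (19.8% of all probe sets) and 1, Ngfr, was lower (12%). Among the higher ones were Sox10 (2.29 ± 0.17), S100b (2.22 ± 0.36), Mbp (2.15 ± 0.20) and Cnp (1.89 ± 0.18). Of 13 leukocyte markers 4 were higher in EOM at day 21 (3.48% of all probe sets). In whole tissue, fewer cells of a type and less RNA per cell cannot be told apart.

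Averaged over the 6 ages, 17 of the 40 tested members were higher in EOM than in leg and 0 were lower, by limma. Of all probe sets tested 31.8% differed, 19.8% higher and 12% lower. The members' median difference was 0.20, against 0.04 for all probe sets, and 29 of 40 were above 0. At an unadjusted p under 0.05, 21 members differed. Such counts, here and below, have no share of all probe sets beside them, and nothing about the members is read from them. Of the 17, Gpx2 passed the filter through its EOM arrays, with 5 of them and 1 leg array over the filter level, so that its call gives no support, and without it 16 of 39 were higher. Over the same comparison 10 of the 11 gland and epithelium markers were higher in EOM, with a median of 0.81, and their part in the members' differences was not tested. Scaling each array to the same median instead turned the split into 13 higher and 2 lower, the lower being the glutathione transferase Gstm7 and the mitochondrial peroxiredoxin Prdx3, and that of all probe sets from 1320 higher and 801 lower to 944 and 1136. Quantile normalization gave 18 higher and 1 lower.

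Of the 11 glutathione transferases tested, 7 were higher in EOM over all ages (Gsta1, Gsta4, Gstm1, Gstm2, Gstm5, Gsto1 and Gstp1), and Gsta3, Gstk1, Gstm7 and Gstt2 were not called. Of the 3 microsomal transferases Mgst1 was higher, and of the 5 glutathione peroxidases Gpx3 and Gpx7 were, besides Gpx2. Of the other members, Gss (glutathione synthetase), Sod3 (the extracellular superoxide dismutase), Hmox2 (the constitutive heme oxygenase), Prdx1 (a cytosolic peroxiredoxin), Txnrd1 (cytosolic thioredoxin reductase) and Mt3 were higher. Under median scaling Gsta1, Gstm5, Gstp1 and Prdx1 were no longer called.

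Levels of the members ran from the floor, 6.66, to 14.51. Read over all 36 arrays, Gpx1 ran from 13.48 to 14.51, Txn2 from 13.33 to 14.37 and Sod1 from 13.05 to 13.82, narrow ranges at the upper end. Prdx1 (11.96 to 13.37), Prdx6 (11.47 to 13.04), Gpx4 (11.93 to 13.90), Gsto1 (11.02 to 13.39), Txnrd1 (11.23 to 12.52) and Mgst2 (11.22 to 12.14) also stayed above 11 on every array. Cat ran from 10.48 to 12.61, Gstm7 from 10.39 to 12.26, Hmox2 from 10.05 to 11.32, Txnl1 from 10.27 to 12.08 and Nqo1 from 8.96 to 11.30. Gsr (9.35 to 10.97), Gstk1 (8.58 to 12.08) and Gclm (7.41 to 9.79) reached lower, and Gsta3 (6.66 to 10.13) and Gpx2 (6.66 to 9.40) reached the floor. Of the untested members, Gclc, the catalytic subunit of glutamate-cysteine ligase, never passed 7.89, Gpx5, known from the epididymis, 7.38, and Txnl4b, a splicing protein of thioredoxin fold, 8.31. Gstt1, a theta-class transferase, reached 9.59 but was over the filter level on 1 array. These levels depend on each probe set and do not rank the genes.

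**Figure D1:**
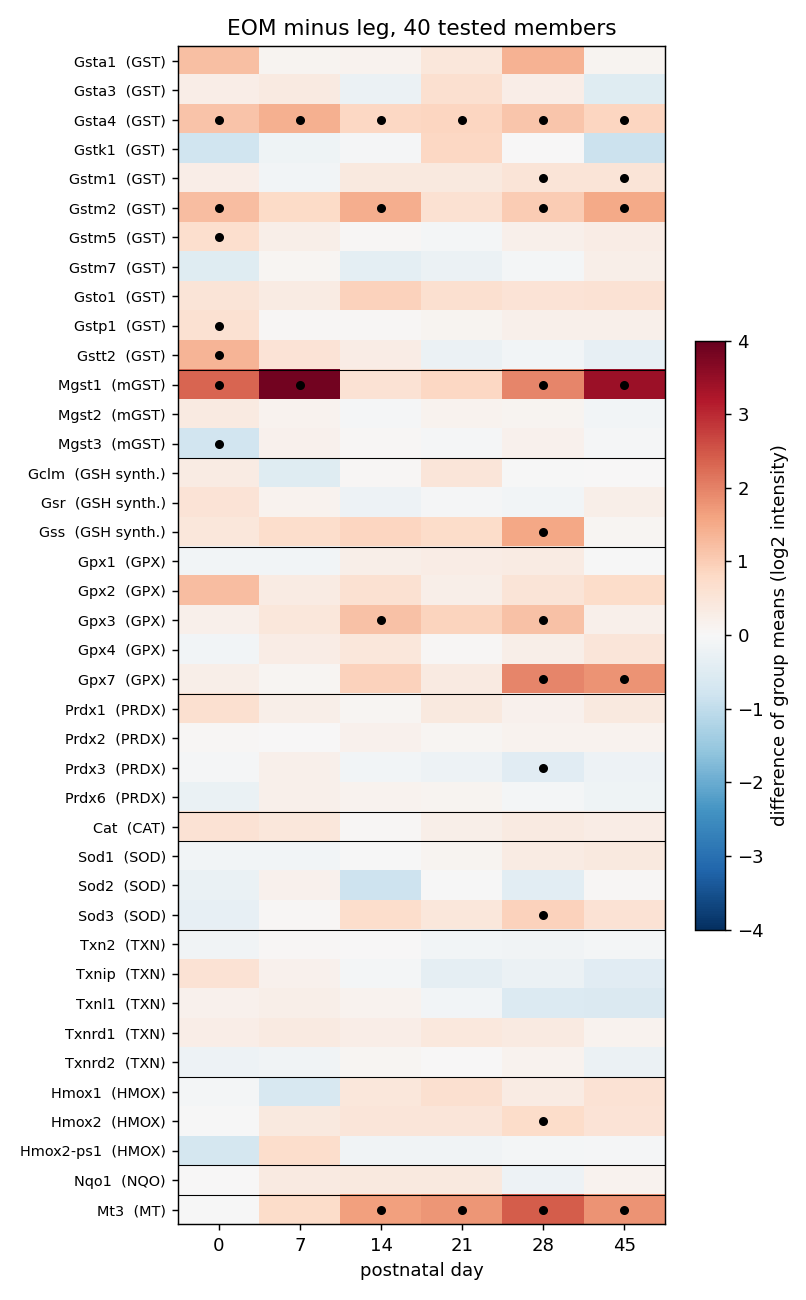
Difference between EOM and leg group means (log2 intensity, colour) for the 40 tested members, in rows by role, at each of the 6 postnatal ages; red is higher in EOM, and a black dot marks a difference called by limma. The dots of Gsta4 run through all 6 ages, those of Mt3 begin at day 14, and Mgst3 at day 0 and Prdx3 at day 28 are the only dots on blue.

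Mgst1, a membrane-bound glutathione transferase and peroxidase of the endoplasmic reticulum and outer mitochondrial membrane, differed most, at 2.16 ± 0.25 over all ages (adjusted p = 5.28e-08). Its 18 EOM arrays read 9.71 at the lowest, 11.30 at the median and 13.96 at the highest, and its 18 leg arrays 7.36, 9.91 and 11.53. The course in EOM was not even. At day 0 the EOM arrays read 13.43, 13.39 and 13.19 and the leg arrays 10.60, 11.53 and 10.88. At day 7 they read 13.87, 13.96 and 13.21 in EOM against 8.65, 9.95 and 10.82 in leg. All EOM arrays thus lay above all leg arrays at both ages, by 2.34 ± 0.61 (adjusted p = 0.0157) and 3.87 ± 0.61 (adjusted p = 8.48e-05). At day 14 the EOM arrays read 10.27, 9.71 and 11.21, below every EOM array of the first week, and the leg arrays 9.87, 9.16 and 10.43. The muscles overlapped there (0.58 ± 0.61) and at day 21 (0.82 ± 0.61), and neither difference was called. They were apart again at day 28, by 1.94 ± 0.61 (adjusted p = 0.0355), and at day 45. The day 45 arrays read 12.80, 12.67 and 11.24 in EOM and 8.22, 8.0 and 10.20 in leg, a difference of 3.43 ± 0.61 (adjusted p = 0.000279). The call at day 0 was lost without leg replicate 1 (2.13) or 3 (2.28) or EOM replicate 1 (2.29) or 2 (2.31). At day 28 it was lost without leg replicate 1 (2.08) or 2 (1.16) or EOM replicate 2 (1.92) or 3 (1.69), under median scaling (1.86), under quantile normalization (1.82), with no filter on dim probe sets (adjusted p = 0.0698) and with the compared arrays alone (adjusted p = 0.161). The gland and epithelium markers were also high in EOM in the first week. Their summed intensity there was 29270 to 40856 at day 0, 10815 to 23445 at day 7 and 3906 to 4688 at day 14. From day 0 to day 7 that sum fell, and the EOM mean of Mgst1 went from 13.34 to 13.68. At day 28, where Mgst1 was called, the sum was 3496 to 3744 in EOM and 3013 to 3944 in leg. At day 45 that sum was 3634 to 18491 in EOM, and its part in the level of Mgst1 was not tested.

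Gsta4 is the transferase known for conjugating 4-hydroxynonenal, a product of lipid peroxidation. It was the only member called at all 6 ages, each time as higher in EOM. Of all 6672 probe sets 29 (0.435%) were higher at all 6 ages and 9 (0.135%) lower. The EOM arrays of Gsta4 read 9.24 at the lowest, 10.08 at the median and 10.85 at the highest, and its leg arrays 8.74, 9.16 and 9.61. The difference over all ages was 1.04 ± 0.09 (adjusted p = 2.08e-10). It was widest at day 7, where EOM read 10.85, 10.75 and 10.61 and leg 9.11, 9.35 and 9.45 (1.43 ± 0.22, adjusted p = 6.25e-05). At day 0 the difference was 1.14 ± 0.22, at day 28 it was 1.11 ± 0.22, and at days 14, 21 and 45 it was 0.83 to 0.85. The EOM and leg arrays did not overlap at any of the 6 ages. The day 21 call was the least secure. It was lost in the fit with replicate number as a block within that age (adjusted p = 0.0523), without leg replicate 1 (0.86) or 2 (0.83) or EOM replicate 3 (0.60), and under median scaling (0.70) and quantile normalization (0.69). With the compared arrays alone the day 21 call was also lost (adjusted p = 0.257). The day 45 call was lost without EOM replicate 2, at 0.61, and with the compared arrays alone (adjusted p = 0.253).

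Gstm2, a mu-class transferase abundant in muscle, was higher in EOM by 1.10 ± 0.10 over all ages (adjusted p = 7.19e-10). Its EOM arrays read 11.50 at the lowest, 12.81 at the median and 13.52 at the highest, and its leg arrays 10.59, 11.44 and 12.81. It was called at days 0, 14, 28 and 45, and at days 7 (0.77 ± 0.25, adjusted p = 0.0758) and 21 (0.61 ± 0.25, adjusted p = 0.198) the arrays were also apart but the differences were not called. At day 45 EOM read 13.08, 13.31 and 13.52 and leg 11.24, 11.86 and 12.27, so that the lowest EOM array lay 0.81 above the highest leg array. The difference there was 1.51 ± 0.25 (adjusted p = 0.000107). Gstm1, of the same class, differed by less, 0.33 ± 0.07 over all ages (adjusted p = 0.000245), and was called at days 28 (0.51 ± 0.16) and 45 (0.53 ± 0.16). Under either other scaling it was called at neither of those ages. The mu-class genes are related in sequence and can share probes, so the probe set of 1 of them can hold signal of another.

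Mt3, a metallothionein known mainly from brain, was at a like level in both muscles at birth and was higher in EOM from day 14. At day 0 EOM read 10.22, 10.24 and 10.03 and leg 9.58, 10.33 and 10.61, overlapping, with a difference of -0.01 ± 0.43. At day 7 EOM read 10.96, 10.93 and 10.99 and leg 9.61, 10.27 and 10.76. The arrays no longer overlapped, but the difference of 0.75 ± 0.43 was not called (adjusted p = 0.512). At day 14 EOM read 11.85, 11.97 and 11.86 and leg 10.20, 10.40 and 10.20, a difference of 1.63 ± 0.43 (adjusted p = 0.0198). At day 28 EOM read 11.15, 11.57 and 11.04 and leg 9.75, 8.14 and 8.64, the widest difference at 2.41 ± 0.43 (adjusted p = 0.000207). All EOM arrays lay above all leg arrays at days 14, 21, 28 and 45. At day 21 EOM read 10.81, 11.35 and 11.58 and leg 10.09, 8.76 and 9.58 (1.77 ± 0.43, adjusted p = 0.0139). At day 45 EOM read 11.72, 11.29 and 10.67 and leg 9.74, 8.09 and 10.47 (1.79 ± 0.43, adjusted p = 0.00556), with the lowest EOM array close to the highest leg array. Over all ages the difference was 1.39 ± 0.17 (adjusted p = 2.09e-07), with EOM arrays at 10.03, 11.09 and 11.97 (lowest, median, highest) and leg arrays at 8.09, 9.92 and 10.76. The day 14 call was lost without any 1 of leg replicates 1, 2 and 3 and EOM replicates 1 and 2, at 1.59 to 1.69. That of day 21 was lost without leg replicate 2 (1.41) or EOM replicate 3 (1.60), and that of day 45 without leg replicate 2 (1.12). With the compared arrays alone the calls of days 21 (adjusted p = 0.129) and 45 (adjusted p = 0.180) were also lost. The Schwann cell and axon markers stood higher in EOM at these ages and also at days 0 and 7, where Mt3 was not called. Their median difference at days 0, 7, 14, 21, 28 and 45 was 0.87, 0.60, 1.25, 0.79, 1.25 and 1.23. At day 0, 4 of the 14 were called higher (3.93% of all probe sets) and 1 lower (2.4%), and at day 7, 5 were higher (3.33%). Their summed intensity was 33602 to 34596 in EOM and 27542 to 32430 in leg at day 0, and 36622 to 46155 in EOM and 17811 to 19067 in leg at day 28. Its part in the difference of Mt3 was not tested.

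**Figure D2:**
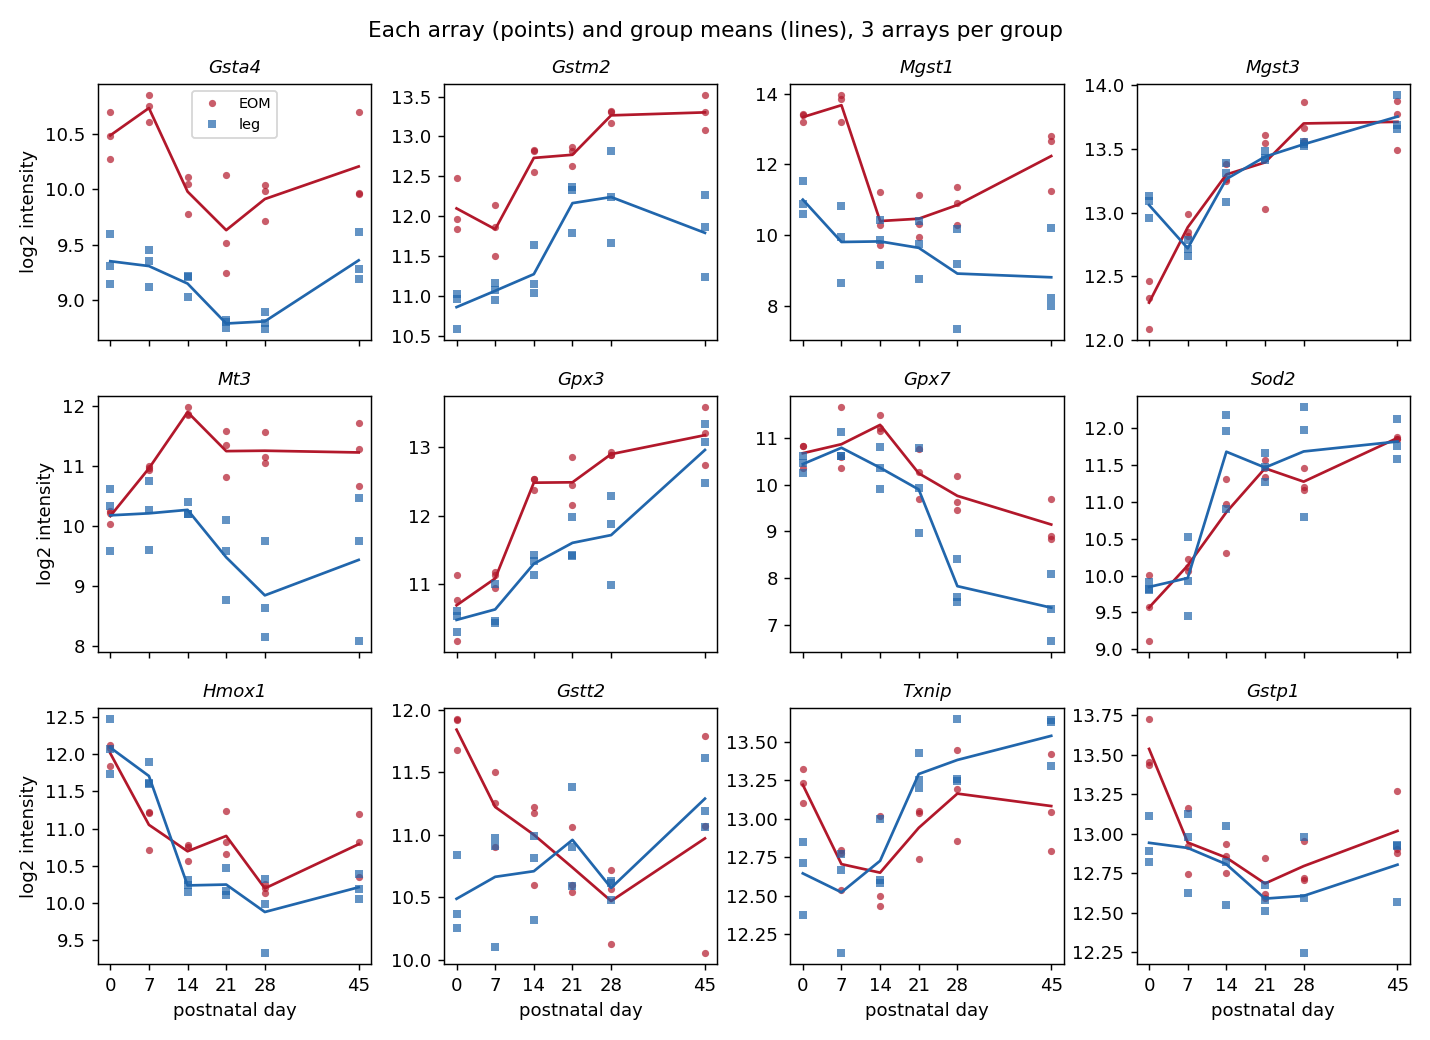
Log2 intensity on each array (points; red circles EOM, blue squares leg) and group means (lines) for 12 members over postnatal days 0 to 45, 3 arrays per group; the axes differ between panels. Mgst1 in EOM drops between days 7 and 14 and is high again at day 45, Mt3 parts from day 14, Gpx7 falls in both muscles and lowest in leg, and Gpx3 and Sod2 climb in both.

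Promoter sequence was set beside these patterns as a description. RefSeq (GRCr8) gave the bases before the start of 36 members, 9 members having no entry used here, and the 250 bases before the start were searched on both strands for the core of the antioxidant response element, TGACNNNGC, and for the metal response core in the forms TGCACNC and TGCGCNC. The antioxidant core was found in 9 of the 36 members (Gclm, Gpx2, Gsta3, Gstm5, Gstm7, Gstp1, Hmox2, Prdx1 and Sod2), or 25%, and in 10.1% of all 33469 promoters. Either form of the metal core was found in 7 members, or 19.4%, and in 20.6% of all promoters. Gsta4 and Mt3 carry 3 matches each to the metal core and are shown because they are a transferase called at all ages and the metallothionein. Gstp1, called at day 0, is shown for its antioxidant core. Each sequence is given 5′ to 3′ on the gene's strand, and capitals mark the matches. Gsta4 lies at chr8:87947015-87947264 on the plus strand, Mt3 at chr19:10856081-10856330 on the minus strand and Gstp1 at chr1:210769706-210769955 on the minus strand.
Gsta4: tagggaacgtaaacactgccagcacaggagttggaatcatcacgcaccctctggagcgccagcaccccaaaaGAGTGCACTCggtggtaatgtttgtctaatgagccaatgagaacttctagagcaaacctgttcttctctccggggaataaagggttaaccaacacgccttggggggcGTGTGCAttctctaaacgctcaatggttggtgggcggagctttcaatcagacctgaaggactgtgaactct
Mt3: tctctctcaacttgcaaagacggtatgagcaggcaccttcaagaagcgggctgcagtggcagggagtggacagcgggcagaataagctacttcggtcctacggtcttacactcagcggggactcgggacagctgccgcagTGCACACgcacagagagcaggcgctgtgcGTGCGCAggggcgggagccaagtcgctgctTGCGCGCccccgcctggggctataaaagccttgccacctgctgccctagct
Gstp1: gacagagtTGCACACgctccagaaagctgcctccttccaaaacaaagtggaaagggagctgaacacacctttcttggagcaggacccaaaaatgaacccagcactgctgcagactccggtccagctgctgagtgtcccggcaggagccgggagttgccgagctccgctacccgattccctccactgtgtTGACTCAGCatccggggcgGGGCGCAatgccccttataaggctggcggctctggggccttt
In Gsta4 the first capitals hold 2 overlapping TGCACNC matches, 1 on each strand from -178 and -175, and the last lies from -71. In Mt3 a TGCACNC match starts at -110 and TGCGCNC matches at -81 and -51. In Gstp1 the TGACNNNGC match starts at -61, with a TGCACNC match at -242 and a TGCGCNC match at -42. No site use was measured in these samples.

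At birth 7 members differed (6.32% of all probe sets did), 6 higher in EOM (3.93%) and 1 lower (2.4%). Besides Mgst1, Gsta4 and Gstm2 the higher ones were 3 transferases that were not called at any later age. Gstt2, a theta-class transferase, read 11.92, 11.68 and 11.93 in EOM and 10.26, 10.36 and 10.84 in leg, well apart, a difference of 1.36 ± 0.31 (adjusted p = 0.00421). Gstp1, the pi-class transferase, read 13.72, 13.43 and 13.45 in EOM and 12.82, 13.11 and 12.89 in leg, also apart (0.59 ± 0.18, adjusted p = 0.0412). Gstm5 read 11.60, 11.65 and 11.35 against 10.92, 10.98 and 10.74 (0.66 ± 0.20, adjusted p = 0.0383). Mgst3, which conjugates glutathione to leukotriene A4 and reduces lipid peroxides, was the lower member, with 12.46, 12.09 and 12.33 in EOM below all of 12.96, 13.13 and 13.09 in leg (-0.77 ± 0.15, adjusted p = 0.000795). The count was 4 without leg replicate 1 or 3 or EOM replicate 1 or 2. Gstm5 was not called without any of these 4 arrays or leg replicate 2, at 0.59 to 0.71, and neither Gstm5 nor Gstp1 was called under median scaling. Gstm5 was also lost under quantile normalization (adjusted p = 0.0652) and with the compared arrays alone (adjusted p = 0.0570). The gland and epithelium markers stood higher in EOM at this age, as given above, and their part in these differences was not tested.

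From day 7 to day 21 few members were called. At day 7 limma called 2 members (4.98% of all probe sets), Gsta4 and Mgst1, both higher (3.33%), and 0 lower (1.65%), and 5 members had an unadjusted p under 0.05. At day 14 it called 4 (4.92%), all higher (2.61%), Gpx3, Gsta4, Gstm2 and Mt3, with 0 lower (2.31%) and 11 at an unadjusted p under 0.05. The fit with replicate number as a block within that age called 7, all higher. Gpx3, the secreted selenium-dependent peroxidase of plasma and extracellular fluid, read 12.53, 12.54 and 12.38 in EOM and 11.34, 11.14 and 11.43 in leg at day 14. The EOM arrays were all higher, by 1.18 ± 0.27 (adjusted p = 0.00713). The count at day 14 was 2 without leg replicate 1 or 2 or EOM replicate 1. At day 21 it called 2 (4.03%), Gsta4 and Mt3, both higher (3.48%), with 0 lower (0.555%) and 8 at an unadjusted p under 0.05, the count falling to 1 without leg replicate 1 and to 0 without leg replicate 2 or EOM replicate 3. Leukocyte markers were most uneven at that age, with a sum of 12770 to 46628 in EOM and 8737 to 14401 in leg.

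Day 28 had the most calls of any age, 11 members (11.8% of all probe sets), 10 higher in EOM (7.63%) and 1 lower (4.18%). Gpx7, a peroxidase of the endoplasmic reticulum that aids protein folding, read 9.64, 10.20 and 9.45 in EOM and 7.59, 8.40 and 7.48 in leg, all EOM arrays lying higher (1.94 ± 0.40, adjusted p = 0.00124). Gss read 10.95, 10.61 and 10.90 against 8.48, 10.18 and 9.12 (1.56 ± 0.39, adjusted p = 0.00656), and Gpx3 12.89, 12.89 and 12.93 against 11.88, 10.99 and 12.29 (1.18 ± 0.27). In both the leg arrays spread far wider than the EOM arrays and did not reach them. Sod3 (0.92 ± 0.26), Hmox2 (0.74 ± 0.19) and Gstm1 (0.51 ± 0.16) were also called, with no overlap of the arrays. Prdx3, which removes peroxide in the mitochondrial matrix, was lower, at 12.74, 13.11 and 13.38 in EOM and 13.44, 13.57 and 13.58 in leg (-0.45 ± 0.15, adjusted p = 0.0448). That call was lost without leg replicate 1, 2 or 3 or EOM replicate 1 or 2 (-0.50 to -0.29) and under both other scalings. It was also lost with a robust prior without trend (adjusted p = 0.0696) and with the compared arrays alone (adjusted p = 0.207). The day 28 count was 6 without leg replicate 2 and 7 without EOM replicate 2.

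At day 45 limma called 6 members (10.6% of all probe sets), all higher in EOM (6.89%), with 0 lower (3.69%) and 12 at an unadjusted p under 0.05. They were Gpx7, Gsta4, Gstm1, Gstm2, Mgst1 and Mt3. Gpx7 read 8.84, 8.91 and 9.70 in EOM and 8.09, 6.66 and 7.34 in leg, where 1 of the 3 leg arrays was at the floor. The EOM arrays were all higher, by 1.79 ± 0.40 (adjusted p = 0.00323). With the compared arrays alone Gpx7 was not called (adjusted p = 0.124). Gpx3 and Gss, called at day 28, differed by 0.22 ± 0.27 and 0.09 ± 0.39. In EOM the 3 Gss arrays read 10.92, 9.93 and 8.95, the widest spread of that gene within a group.

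The members called at 3 or more ages, all higher in EOM, were Gsta4, Gstm2, Mgst1 and Mt3, 4 of 40, as were 3.28% of all probe sets. At 2 or more ages 7 were higher, Gpx3, Gpx7 and Gstm1 being the others (6.41%), and 0 lower (3.04%). At 1 or more ages 13 members were higher (15.1%) and 2, Mgst3 and Prdx3, were lower (9.07%). Gpx2, the peroxidase known from gut epithelium, was called at no single age. Its difference over all ages was 0.61 ± 0.20, and across ages it was called in EOM, but it exceeded the filter level on only 6 of 36 arrays and lay at the floor on 12.

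With age the members moved in both directions. From day 0 to day 45 in EOM 24 of 40 changed (31.3% of all probe sets did), 15 rising (12.9%) and 9 falling (18.4%). Under median scaling these were 16 and 6, with Gpx1, Gstm5, Gstp1 and Gstt2 no longer called and Hmox2 and Mt3 called as higher. In leg 16 changed (32.8%), 13 rising (14.4%) and 3, Gpx7, Hmox1 and Mgst1, falling (18.5%). The median change was 0.07 in EOM and 0.05 in leg, against -0.04 and 0.06 over all probe sets. In both muscles 11 members rose (8.14%): Gpx3, Gsta1, Gstm2, Gstm7, Gsto1, Mgst3, Nqo1, Prdx3, Sod2, Txn2 and Txnrd2. Gpx7 and Hmox1 fell in both (11.9%). Muscle fibre markers rose over the same interval, 5 of 9 in each muscle with 0 falling, with medians of 1.55 in EOM and 0.88 in leg. Their summed intensity was 36746 to 45942 at day 0 and 97745 to 229266 at day 45 in EOM. In leg it was 36722 to 54900 and then 107975 to 145479. Of 11 adipocyte markers 6 rose in EOM, and in leg 1 rose and 2 fell. The part of these tissues in the members' changes was not tested.

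**Figure D3:**
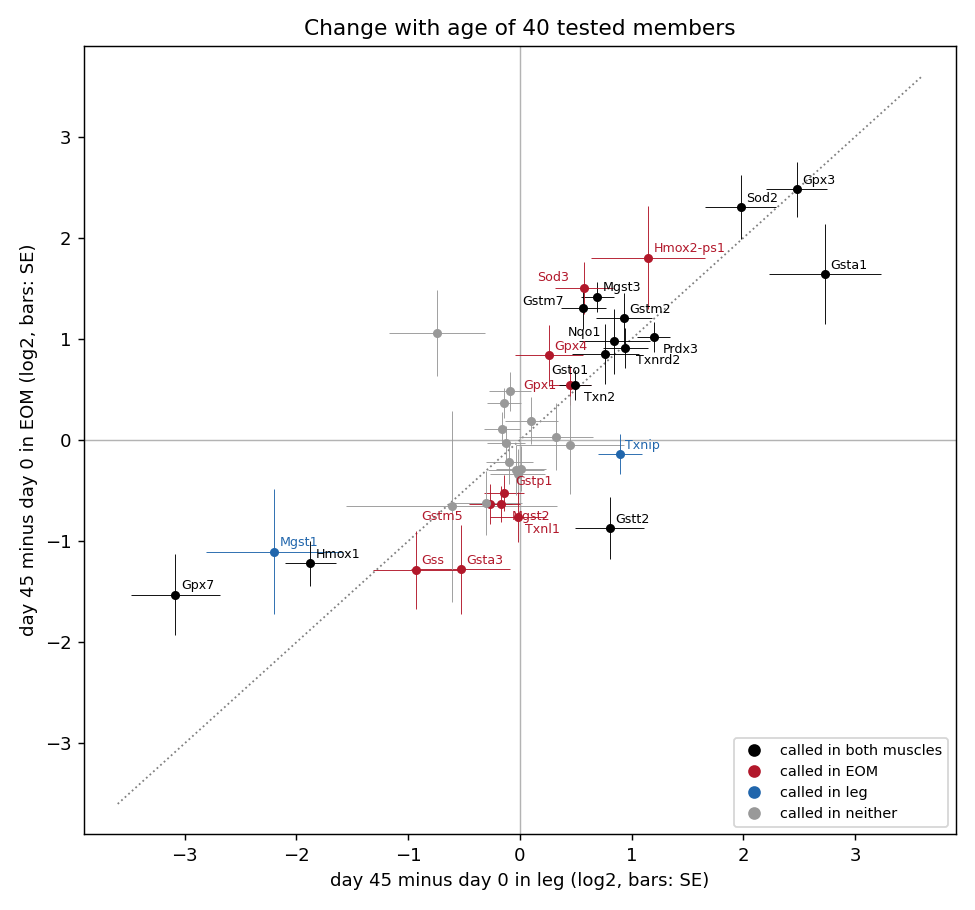
Change from day 0 to day 45 of the 40 tested members in leg (horizontal) and EOM (vertical), log2 intensity with SE bars; colours show where limma called the change, and the dotted line marks equal change. Gpx3, Sod2 and Gsta1 lie far up in both muscles and Gpx7 and Hmox1 down in both, while Gstt2 lies below 0 in EOM and above 0 in leg.

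The members that rose in both muscles included 4 mitochondrial ones, Sod2, Prdx3, Txnrd2 and Txn2. Sod2, the manganese superoxide dismutase of the matrix, read 9.57, 9.12 and 10.01 in EOM at day 0 and 11.86, 11.86 and 11.89 at day 45. In leg it read 9.92, 9.82 and 9.80 and then 11.76, 12.12 and 11.58. No day 45 array came near a day 0 array in either muscle, and the change was 2.30 ± 0.32 in EOM (adjusted p = 1.25e-06) and 1.98 ± 0.32 in leg (adjusted p = 1.17e-05). Prdx3 read 12.30, 12.38 and 12.06 in leg at day 0 and 13.42, 13.42 and 13.49 at day 45, a rise of 1.20 ± 0.15 (adjusted p = 2.18e-07), and rose by 1.02 ± 0.15 in EOM. Txnrd2, the mitochondrial thioredoxin reductase, read 10.09, 10.03 and 10.15 in leg at day 0 and 11.02, 11.23 and 10.86 at day 45 (0.94 ± 0.20, adjusted p = 0.000386). It rose by 0.91 ± 0.20 in EOM. Txn2, the mitochondrial thioredoxin, rose by 0.55 ± 0.15 in EOM and 0.49 ± 0.15 in leg. The other probe set of Prdx3 changed by 0.53 in EOM and only 0.18 in leg, and that of Txnrd2 by 1.07 and 0.15. Gstk1, a mitochondrial transferase, was called in neither muscle, and its 2 probe sets had opposite signs in each. Sod1, the cytosolic dismutase, was not called in EOM (0.37 ± 0.15) or leg (-0.14 ± 0.15).

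Gpx3 rose in both muscles. In EOM it read 10.77, 10.18 and 11.13 at day 0 and 12.74, 13.21 and 13.58 at day 45, and in leg 10.30, 10.54 and 10.61 and then 12.48, 13.07 and 13.33. All day 45 arrays were above all day 0 arrays, by 2.48 ± 0.27 in each muscle. Between these ages EOM ran ahead, as given for days 14 and 28. Gsta1, an alpha-class transferase, read 9.37, 8.94 and 9.23 in EOM at day 0 and 10.65, 10.68 and 11.13 at day 45, and in leg 7.01, 8.42 and 8.47 and then 10.72, 10.55 and 10.84. It rose by 1.64 ± 0.50 (adjusted p = 0.0117) and 2.73 ± 0.50 (adjusted p = 6.86e-05), and the muscles overlapped at day 45. Its probe set is of a kind that can match several alpha-class genes.

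Among the others that rose in EOM, Sod3 read 11.59, 10.94 and 10.80 at day 0 and 12.68, 12.80 and 12.38 at day 45 (1.51 ± 0.26, adjusted p = 3.68e-05). In leg its change of 0.58 ± 0.26 was not called. Hmox2-ps1, a pseudogene of the heme oxygenase family, read 7.99, 7.36 and 6.66 and then 9.34, 9.27 and 8.81, 1 day 0 array being at the floor (1.80 ± 0.51, adjusted p = 0.00683). Without that array the change was 1.47 and not called. Mgst3, Gstm7 and Gstm2 rose by 1.42, 1.30 and 1.20 in EOM and by 0.69, 0.57 and 0.93 in leg. Nqo1, the quinone reductase, rose by 0.98 ± 0.32 and 0.85 ± 0.32, and the omega-class transferase Gsto1 by 0.85 ± 0.30 and 0.76 ± 0.30. Gpx4, which reduces lipid peroxides within membranes, and Gpx1, the cytosolic peroxidase, rose in EOM by 0.84 ± 0.30 and 0.54 ± 0.19 and were not called in leg.

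Of the members that fell, Gpx7 lost most. In leg it read 10.25, 10.62 and 10.47 at day 0 and 8.09, 6.66 and 7.34 at day 45, with 1 array of day 45 at the floor, and fell by 3.08 ± 0.40 (adjusted p = 4.15e-07). In EOM it read 10.36, 10.84 and 10.84 and then 8.84, 8.91 and 9.70, and fell by 1.53 ± 0.40 (adjusted p = 0.00371). Arrays of the 2 ages were apart in both muscles. Hmox1, the inducible heme oxygenase, read 12.12, 12.08 and 11.84 in EOM at day 0 and 11.19, 10.82 and 10.36 at day 45 (-1.22 ± 0.23, adjusted p = 8.59e-05). In leg it read 11.73, 12.07 and 12.47 and then 10.19, 10.06 and 10.39 (-1.87 ± 0.23, adjusted p = 1.04e-07). Again all later arrays were lower. At day 7 the 3 leg arrays of Hmox1 (11.60, 11.90, 11.62) lay above the 3 EOM arrays (11.21, 11.23, 10.71), and at days 14 and 21 below them, with no call at these ages except for a lower call in EOM at day 7 under either other scaling.

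Mgst1 fell in leg, from 10.60, 11.53 and 10.88 to 8.22, 8.0 and 10.20 (-2.20 ± 0.61, adjusted p = 0.00597). In EOM its change of -1.10 ± 0.61 was not called. A further 7 members fell in EOM and were not called as falling in leg, and of these the difference between the muscles was called for Gstt2. Gss went from 11.49, 11.46 and 10.69 to 10.92, 9.93 and 8.95 (-1.28 ± 0.39, adjusted p = 0.0111) and Gsta3 from 8.89, 9.73 and 9.67 to 7.42, 9.05 and 7.97 (-1.28 ± 0.44, adjusted p = 0.0267). The arrays of the 2 ages overlapped in both. The call of Gss was lost without EOM day 0 replicate 1 (-1.14) or 2 (-1.16) or day 45 replicate 3 (-0.79), and that of Gsta3 without day 0 replicate 2 (-1.13) or 3 (-1.16) or day 45 replicate 1 (-0.92) or 3 (-1.19). With the compared arrays alone neither Gss (adjusted p = 0.0886) nor Gsta3 (adjusted p = 0.0938) was called. Txnl1, a proteasome-bound thioredoxin-like protein (-0.76 ± 0.25), Mgst2 (-0.63 ± 0.18), Gstm5 (-0.63 ± 0.20) and Gstp1 (-0.52 ± 0.18) had smaller falls, and Gstt2 is described with the differences between changes. In leg the probe set used for Gss changed by -0.93, and its other set by -1.68 in EOM and -1.67 in leg. The other set of Gstm5 changed by -0.39 in EOM and -0.67 in leg. The gland and epithelium markers fell in EOM over the same interval in 9 of 11 cases (18.4% of all probe sets), Krt8 with -5.01 ± 0.38. Their part in the EOM falls was not tested.

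Mt3 was followed in the changes with age too. In EOM it went from 10.22, 10.24 and 10.03 to 11.72, 11.29 and 10.67, with no overlap, but its change of 1.06 ± 0.43 missed the threshold (adjusted p = 0.0581). It passed under median scaling (1.17, adjusted p = 0.0329), under quantile normalization (1.26, adjusted p = 0.0213), with a stricter filter (adjusted p = 0.0498), with the compared arrays alone (adjusted p = 0.0304) and without EOM day 45 replicate 3 (1.34, adjusted p = 0.0333). In leg its change was -0.74 ± 0.43 (adjusted p = 0.190), with arrays of 9.58, 10.33 and 10.61 and then 9.74, 8.09 and 10.47 that overlapped. It was -1.26 and called without leg day 45 replicate 3, and -0.07 without leg day 45 replicate 2. Its changes differed between the muscles by 1.80 ± 0.60 (adjusted p = 0.101), by 2.32 without leg day 45 replicate 3 (adjusted p = 0.0166) and by 1.13 without leg day 45 replicate 2 (adjusted p = 0.360). The test for any change across the 6 ages called Mt3 in both muscles.

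The change from day 0 to day 45 differed between the muscles for 3 members (3.7% of all probe sets), 1 more positive in EOM (2.25%) and 2 more negative (1.45%). At an unadjusted p under 0.05 there were 11. Gstt2 fell in EOM, from 11.92, 11.68 and 11.93 to 11.79, 11.07 and 10.06, and rose in leg, from 10.26, 10.36 and 10.84 to 11.19, 11.06 and 11.62. The EOM arrays of day 45 overlapped those of day 0 and the leg arrays did not. Its changes were -0.87 ± 0.31 (adjusted p = 0.0303) and 0.80 ± 0.31 (adjusted p = 0.0447). The fall in EOM was not called without EOM day 0 replicate 1 (-0.83) or 3 (-0.83), without EOM day 45 replicate 3 (-0.41) or under median scaling (-0.76). With the compared arrays alone that fall was not called either (adjusted p = 0.151). The changes differed by -1.67 ± 0.44 (adjusted p = 0.0246). Txnip, which binds and inhibits thioredoxin and restrains glucose uptake, read 13.33, 13.24 and 13.10 in EOM at day 0 and 13.42, 12.79 and 13.04 at day 45. In leg it read 12.85, 12.71 and 12.37 and then 13.63, 13.65 and 13.35. It rose in leg, by 0.90 ± 0.20 (adjusted p = 0.000752), with -0.14 ± 0.20 in EOM, and the changes differed by -1.03 ± 0.28 (adjusted p = 0.0333). Mgst3 rose in both, from 12.46, 12.09 and 12.33 to 13.77, 13.49 and 13.87 in EOM and from 12.96, 13.13 and 13.09 to 13.92, 13.65 and 13.69 in leg. It started lower in EOM and the muscles overlapped at day 45, and the changes differed by 0.72 ± 0.21 (adjusted p = 0.0473).

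These 3 calls were fragile. The count was 0 without leg day 0 replicate 2 or EOM day 45 replicate 3, and 1 without leg day 0 replicate 1 or 3 or EOM day 0 replicate 1 or 2. Gstt2 was not called without any 1 of 5 arrays (leg day 0 replicates 1 and 2, leg day 45 replicate 3, EOM day 0 replicate 1 and EOM day 45 replicate 3), at -1.64 to -1.22. Txnip was not called without any 1 of 8 of the 12 arrays (-1.07 to -0.89) and Mgst3 without any 1 of 9 (0.62 to 0.78), and median scaling left only Gstt2. A robust prior without trend ended the calls of Txnip and Mgst3, and the compared arrays alone ended all 3 calls.

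Of the 40 tested members 24 changed across the 6 ages in EOM (31.4% of all probe sets) and 19 in leg (35.9%). Gsta4 changed in EOM (adjusted p = 0.00186) and was not called in leg (adjusted p = 0.0764), and the difference between these was not tested. The 6 members called in none of the 12 comparisons were Cat (catalase), Gsr (glutathione reductase), Gstk1 (the mitochondrial kappa-class transferase), Prdx2, Prdx6 and Sod1. Prdx2, a peroxiredoxin abundant in red cells, stayed between 13.05 and 13.61 on the 18 EOM arrays and between 12.91 and 13.68 in leg. Gstk1 spread by up to 3.36 among the 3 arrays of a group, so that its SE over all ages was 0.39. The probe set used for Gclm, the modifier subunit of glutamate-cysteine ligase, was called across ages in leg (adjusted p = 0.0316) and in no other comparison. The 3 tested sets of Gclm changed from day 0 to day 45 by -2.01 to -0.62 in EOM and by -1.55 to -0.30 in leg, the set used changing least.

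**Figure D4:**
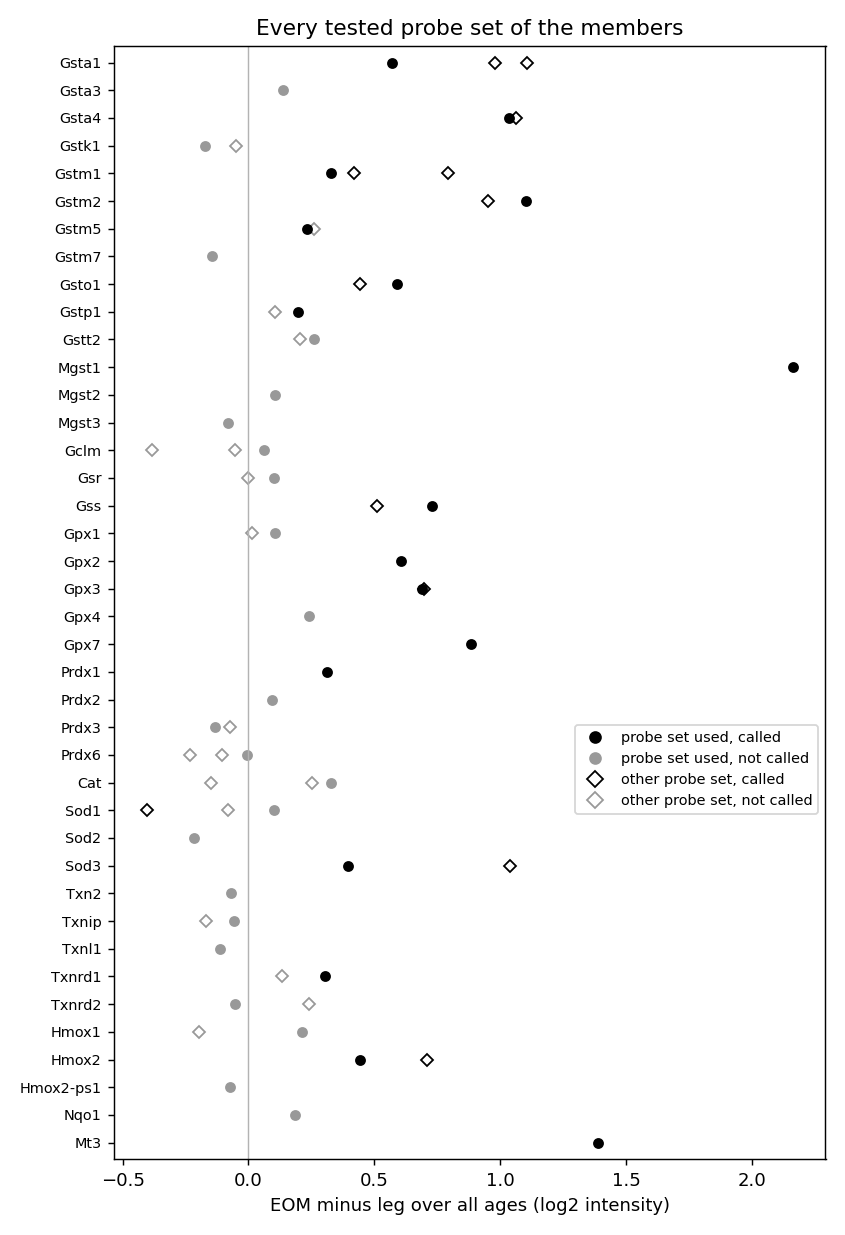
Difference between EOM and leg over all ages (log2 intensity) for every tested probe set of the 40 members; filled circles are the probe sets used, open diamonds the others, and black marks those called by limma. The other sets of Gsta1, Gsta4, Gstm1, Gstm2, Gss, Gpx3, Sod3, Gsto1 and Hmox2 are also called on the right of 0, and 1 further set of Sod1 is called on the left.

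A second look came from genes with several probe sets. Of 24 members with 2 or more tested, all sets had 1 sign in 18 over all ages, in 21 for the change in EOM and in 20 for the change in leg, and in 0 were sets called in opposite directions. The sets of 1 gene are read from the same RNA, so they check the probes and not the samples. Mgst1, Mt3, Gpx7, Mgst3 and Sod2 had only 1 tested probe set each and so had no such check. The other set of Gsta4 differed by 1.06 ± 0.19 over all ages. The 2 further sets of Gsta1 rose by 2.75 and 3.25 in EOM. For Txnip the other set also differed between the muscles (-1.49 ± 0.40), but that of Gstt2 did not pass (-0.40 ± 0.32, adjusted p = 0.663). A second set of Hmox2 was called where the first was not, with changes that differed by 1.64 ± 0.46. For Sod1, 1 of 3 sets was lower in EOM over all ages (-0.40 ± 0.15, adjusted p = 0.0342).

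Genes that supply or surround the pathway were taken from lists, whose counts over all ages stand beside 19.8% of all probe sets higher, 12% lower and a median of 0.04. Of 8 tested enzymes that make NADPH, the reductant behind glutathione and thioredoxin, 3 were higher in EOM over all ages and 1 lower, with a median of 0.02. The pentose phosphate enzymes Taldo1 (1.03 ± 0.11) and Tkt (0.81 ± 0.12) and the cytosolic isocitrate dehydrogenase Idh1 (0.63 ± 0.10) were higher, and Aldh1l1, of folate metabolism, was lower (-0.53 ± 0.12). Malic enzyme, Me1, rose by 1.94 ± 0.27 in EOM and 2.85 ± 0.27 in leg from day 0 to day 45, and Tkt fell by 1.67 ± 0.28 and 2.08 ± 0.28. Of 11 genes of glutathione turnover, 1 was higher, the transporter subunit Slc3a2 (0.30 ± 0.10), and 2 were lower, Mat2a and Ahcy of the methionine cycle (-0.37 ± 0.13 and -0.18 ± 0.06), with a median of 0.05.

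Of 17 other Nrf2 targets and detoxifying enzymes, 7 were higher in EOM over all ages and 0 lower, with a median of 0.09. Cyp1b1, a cytochrome P450 of steroid and xenobiotic metabolism, differed by 2.85 ± 0.16, the sulfotransferase Sult1a1 by 0.77 ± 0.10, the carbonyl reductase Cbr1 by 0.56 ± 0.10, and Nfe2l2, which encodes Nrf2 itself, by 0.55 ± 0.13 (adjusted p = 0.00137). Of 13 genes of iron, heme and metal handling, 5 were higher and 1 lower, with a median of 0.14. Ceruloplasmin, Cp, the copper-carrying ferroxidase, was higher by 1.42 ± 0.19, Alas2 by 0.89 ± 0.12 and Aco1 by 0.47 ± 0.11, and the transferrin receptor Tfrc was lower (-0.72 ± 0.14). Of 11 oxidant sources and selenoproteins 4 were higher and 1 lower, with a median of 0.33. The higher ones were xanthine dehydrogenase Xdh by 1.27 ± 0.20, monoamine oxidase Maob by 1.21 ± 0.14, Cyba by 1.06 ± 0.21 and Selenop, the plasma carrier of selenium, by 0.55 ± 0.11. Selenow, a muscle selenoprotein, was lower (-0.49 ± 0.11) and rose from day 0 to day 45 by 1.47 ± 0.26 in EOM and 2.53 ± 0.26 in leg.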

How the data were processed

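Total RNA was hybridised to Affymetrix RG-U34A arrays, per the labels, which also gave muscle, age and replicate number. The authors deposited 1 linear intensity per probe set and array. The trimmed means lay between 1501.08 and 1502.29, so the deposited intensity values share a scale. The software that summarised the probes was not given in the sources used here.

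No further scaling was applied. Values under the 20th percentile (100.9, log2 6.66) were set to it, and log2 was taken. Without the 59 control probe sets, those above the 40th percentile (320.4) on 3 or more arrays entered the tests, 6672 of 8799. The platform annotation of 2016 gave symbols, and all 45 members matched the RefSeq gene table by identifier with 0 symbols updated. Of the tested members 1, Gpx2, reached 3 arrays over the filter level in EOM and not in leg. A log2 difference that involves the floor can be smaller than the real one. Arrays give no depth, and 3 arrays a group limit the precision.

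A mean per group was fitted in limma 3.58.1 (R 4.3.3) on the 36 arrays together (trended prior, 24 residual and 5.84 prior degrees of freedom), after a test on simulated data. Comparisons were EOM minus leg at each age and over all ages, day 45 minus day 0 in each muscle, the difference of these changes, and any change with age (moderated F). Benjamini-Hochberg adjustment ran over all probe sets of a comparison, with a threshold of 0.05. Alternatives were 2 other scalings, floor, pseudocount, filter, prior, probe set choice, replicate block, the compared arrays alone and each array left out.

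The members and lists were chosen with earlier results of these data known. Every member is named. Array values are given for up to 5 members each way with the largest called difference over all ages, at days 0 and 45 and in each change with age, up to 3 at the other ages and up to 6 in the difference of changes, and for Mt3 throughout. A few other values, such as those of Gstp1, Gss and Gpx3 at day 28 and Hmox1 at day 7, were added after they were seen. Up to 4 called genes of a list are named.

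Deviations of same-numbered EOM and leg arrays from their group means correlated at 0.17, 0.13 and 0.30 at day 7, 0.12, 0.11 and 0.16 at day 14 and 0.10, 0.15 and 0.37 at day 21, all over 0.1 before rounding, so the numbers may pair samples there. This rests on the values, since no label says what a number marks. At days 0, 28 and 45 they ran from -0.09 to 0.26. Figures were drawn with matplotlib 3.10.9.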

Additional observations from a re-analysis of the deposited data

Results flagged for a closer look

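Groups of 3 arrays were not tested for outlying arrays. The change from day 0 to day 45 differed between EOM and leg by the test of that difference in limma for 3 members. Gstt2 changed by 1.67 less on the log2 scale in EOM than in leg, a difference of -1.67 ± 0.44 (SE). Txnip differed by -1.03 ± 0.28. Mgst3 differed by 0.72 ± 0.21. The second probe set of Txnip was called in the same direction and that of Gstt2 was not called.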

How the results depend on the processing

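Counts of members called kept within 1.5 times of the reported count under every alternative run at day 7, over all ages, in the change in leg and across ages in either muscle. Leaving out 1 array gave 4 to 6 calls at day 0, 2 at day 7, 2 to 4 at day 14, 0 to 3 at day 21, 6 to 10 at day 28, 4 to 7 at day 45, 15 to 20 over all ages, 16 to 21 in the change in EOM, 13 to 17 in leg, 0 to 2 in the difference of changes, 19 to 24 across ages in EOM and 16 to 21 in leg. Fitting only the arrays of the groups compared, with fewer degrees of freedom, gave 0 at day 21, 4 at day 28, 2 at day 45, 15 in the change in EOM and 0 in the difference of changes. Median scaling and quantile normalization each gave 1 at day 21, and median scaling or a robust prior without trend 1 in the difference of changes. Counting any probe set of a gene gave 4 at day 21 and 10 at day 45. The replicate block gave 7 at day 14 within the age and 4 at day 21 over all arrays. Where numbers may pair samples the block within the age ended the call of Gsta4 at day 21 and of no other member whose array values are given. Elsewhere it gave 8 at day 0, 13 at day 28 and 7 at day 45. Median scaling moved the median of all probe sets by over 0.1 in 3 comparisons, -0.13 at days 0 and 21 and 0.10 in the change in EOM, and turned the direction of 0 calls. The alternatives were run for members chosen for array values under the naming rule, and among those differences only that of Mt3 at day 0 changed sign. It was -0.01, ran from -0.31 to 0.21 with 1 array left out, and was above 0 without leg replicate 2 (0.065) or 3 (0.21) or EOM replicate 3 (0.054). Signal near the floor limits Gpx2, Gpx7 in leg and Hmox2-ps1.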

Other observations

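Of 11 adipocyte markers 3 were higher in EOM over all ages (19.8% of all probe sets) and 2 were lower (12%). The higher ones were the desaturases Scd (2.12 ± 0.21) and Scd2 (1.64 ± 0.12) and the lipid droplet protein Cidea (1.09 ± 0.12). The lower ones were the fatty acid binding protein Fabp4 (-0.46 ± 0.10) and lipoprotein lipase, Lpl (-0.36 ± 0.06). Of 6 erythroid markers, beside the same shares, the globins Hbb (-1.15 ± 0.32) and Hbb-b1 (-1.19 ± 0.30) were lower and Hbe1 (1.01 ± 0.20) and Alas2 (0.89 ± 0.12) higher. From day 0 to day 45, of 13 genes of iron, heme and metal handling 3 rose (12.9% of all probe sets) and 2 fell (18.4%) in EOM. In leg 2 rose (14.4%) and 3 fell (18.5%). Alas1, the housekeeping first enzyme of heme synthesis, rose over that interval by 3.16 ± 0.28 in EOM and 2.05 ± 0.28 in leg. Xdh rose by 2.93 ± 0.48 and 3.66 ± 0.48, and the retinal dehydrogenase Aldh1a1 by 2.08 ± 0.21 and 3.05 ± 0.21.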
